A study of Mus musculus with 6 samples.

Results

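The 10 genes described here belong to the transforming growth factor beta (TGF-β) family of signals and were measured in mouse brown adipose tissue (BAT). They are the ligand genes Tgfb1, Tgfb2 and Tgfb3, the receptor genes Tgfbr1 and Tgfbr2, the activin subunit genes Inhba and Inhbb, the bone morphogenetic protein (BMP) genes Bmp4 and Bmp7, and Fst, which encodes the activin inhibitor follistatin. They were chosen by gene symbol, and all 10 were found among the 35976 rows of the count table. Of the 14542 genes with enough counts to be tested, 8 are members, since Inhba and Bmp7 did not pass the filter on low counts.

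RNA-seq was performed on BAT from 3 wild-type (WT) and 3 sST2-KO mice, which were littermates 10 weeks old. In sST2-KO mice CRISPR/Cas9 had been used to delete the sequence that separates exons 8 and 9 of Il1rl1, which was meant to remove sST2, the soluble form of the interleukin-33 receptor ST2. Both groups shared all other treatments, as the BAT of all 6 mice was surgically denervated, the mice were kept at 30 °C for 7 days, and they were then held at 10 °C for 8 h. The sample titles read WT and ST2-KO with a replicate number and do not state that each library is a separate animal, so the p-values below measure the spread between these libraries. No library with intact nerves or without cold was analysed here.

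Ligands of the TGF-β family are secreted as dimers that bring together type II and type I receptor kinases on the cell surface, and the activated type I receptor phosphorylates SMAD proteins, which then act on genes in the nucleus. TGF-β and activins signal mainly through SMAD2 and SMAD3, and BMPs through SMAD1, SMAD5 and SMAD9. In brown fat, BMP7 is known as a signal that commits precursor cells to the brown lineage, whereas TGF-β and activin signals through SMAD3 are known to restrain brown adipocyte genes.

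Tgfb1 and Inhbb, the genes of TGF-β1 and of the activin B subunit, were higher in sST2-KO than in WT BAT, by 2.43-fold and 2.61-fold in mean level. Neither of the receptor genes, nor Tgfb2, Tgfb3, Bmp4 or Fst, passed the test, and Inhba and Bmp7 were close to undetected in both groups. Genes were called where the adjusted p was below 0.05 and the level differed by more than 2-fold. By this rule 2 of the 8 members tested were higher and 0 were lower, where 9.04% of all genes tested were called higher. All adjusted p-values are from the quasi-likelihood test of edgeR, adjusted over every gene tested by the Benjamini-Hochberg method. The median log2 fold change of the 8 members was 0.29, against 0.034 for all genes tested, and lay between 0.16 (without WT replicate 2) and 0.55 (without WT replicate 1) when 1 library was left out. In 3 of the 8, Tgfb1, Inhbb and Bmp4, every sST2-KO library lay above every WT library, and groups without overlap were found in 41.5% of all genes tested, so that this count is near the background. Levels are given as normalized CPM, the a gene's share of the library's counts (CPM) after the libraries were scaled by the TMM method of edgeR.

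**Figure D1:**
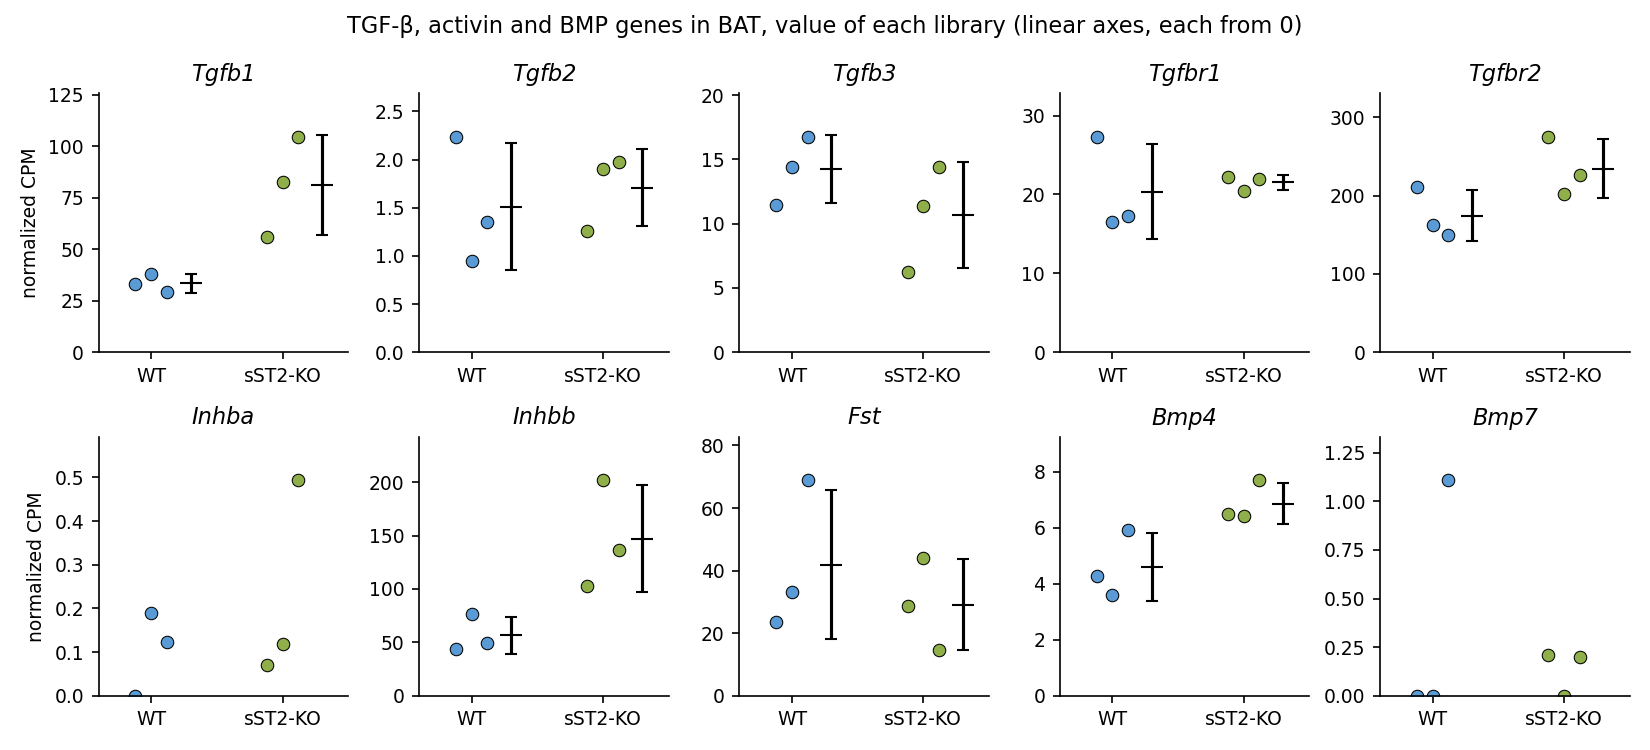
Normalized CPM of the 10 members, with a linear axis from 0 in each panel, 1 point per library (WT in blue, sST2-KO in green, replicates 1 to 3 from left to right) and, for the 8 genes tested, a bar for the mean and whiskers for 1 SD (n = 3). In the panels of Tgfb1, Inhbb and Bmp4 all green points lie above all blue points, and Inhba and Bmp7 stay at or under 1.11 CPM.

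The sequences just before the start sites of 3 members are shown because Tgfb1 and Inhbb were the members that rose together, and Tgfb2 had the lowest level of the TGF-β ligand genes. Each is the 250 bases upstream of the RefSeq start site, read 5′ to 3′ on the gene's strand. The GENCODE annotation, which gives the gene positions below, starts each of these genes inside its window. The last bases of each window thus lie within the gene as annotated there. They come from RefSeq's promoter table, which is on GRCm38.p6, and were matched base for base to GRCm39 for the positions chr7:25386177-25386426 (plus strand) for Tgfb1, chr1:119349979-119350228 (minus strand) for Inhbb and chr1:186438187-186438436 (minus strand) for Tgfb2. Capitals mark a GC box (GGGCGG or CCGCCC), a SMAD box (CAGAC or GTCTG) or a TATA box (TATAAA or TTTATA), each searched on both strands.
Tgfb1: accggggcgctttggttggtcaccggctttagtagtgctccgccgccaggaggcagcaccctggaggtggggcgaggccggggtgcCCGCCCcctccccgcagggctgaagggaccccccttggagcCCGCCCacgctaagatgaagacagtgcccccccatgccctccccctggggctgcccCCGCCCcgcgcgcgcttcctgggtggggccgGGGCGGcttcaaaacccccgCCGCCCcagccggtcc
Inhbb: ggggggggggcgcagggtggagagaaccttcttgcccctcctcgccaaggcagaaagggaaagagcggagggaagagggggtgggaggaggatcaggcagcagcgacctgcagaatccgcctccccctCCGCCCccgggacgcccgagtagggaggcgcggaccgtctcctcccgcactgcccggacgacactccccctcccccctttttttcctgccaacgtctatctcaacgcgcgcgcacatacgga
Tgfb2: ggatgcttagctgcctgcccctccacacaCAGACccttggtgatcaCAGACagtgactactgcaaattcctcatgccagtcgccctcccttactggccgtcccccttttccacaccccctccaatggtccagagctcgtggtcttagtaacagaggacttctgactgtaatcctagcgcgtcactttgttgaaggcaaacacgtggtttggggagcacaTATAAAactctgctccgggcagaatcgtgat
The Tgfb1 window holds 5 GC boxes, which start 164, 123, 67, 36 and 16 bases before the start site, with none of the other marked motifs, and its GC content is 75.2%. The Inhbb window has 68.0% GC and 1 GC box, 122 bases before the start. The Tgfb2 window has 53.6% GC, close to the median of 52.4% over all promoters, with SMAD boxes 221 and 204 bases and a TATA box 31 bases before the start. Among 32851 promoter windows of this length, 32.7% hold a GC box, 42.2% a SMAD box and 12.4% a TATA box. Of the 7 members in the promoter table, 4 hold a GC box, 3 a SMAD box and 2 a TATA box. By the GENCODE starts, the Tgfb1 GC boxes at 36 and 16 bases and the Tgfb2 TATA box at 31 bases lie within the annotated genes. Such a match is a description of the letters only.

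Tgfb1, on chromosome 7 from 25386390 to 25404506 of GRCm39 on the plus strand, encodes TGF-β1, a ligand that restrains immune cells and drives matrix production. Its level in replicates 1 to 3 was 33.1, 38.0 and 29.1 normalized CPM in WT and 56.1, 82.6 and 105 normalized CPM in sST2-KO libraries, from 236 to 403 counts per WT library and 696 to 1061 counts per sST2-KO library. The WT libraries lay close together, and the lowest sST2-KO library was above the highest of them, with replicate 3 the highest. The group means were 33.4 ± 4.45 CPM (SD, n = 3) in WT and 81.2 ± 24.4 CPM (SD, n = 3) in sST2-KO, and the log2 fold change was 1.28 with a standard error of 0.26 (edgeR adjusted p = 0.0187). Without sST2-KO replicate 3 it was 1.05 (edgeR adjusted p = 0.0417). The call was lost without WT replicate 2 (edgeR adjusted p = 0.0521) or WT replicate 3 (edgeR adjusted p = 0.0873). No other annotated gene overlaps the exons of Tgfb1.

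Tgfb3, on chromosome 12 from 86102756 to 86126301 on the minus strand, encodes a TGF-β ligand best known from palate and lung development. It was measured at 11.5, 14.4 and 16.8 CPM in the WT libraries and at 6.20, 11.4 and 14.4 CPM in the sST2-KO libraries. The groups overlapped, with sST2-KO replicate 1 below all others, and the log2 fold change of -0.42 (standard error 0.34, edgeR adjusted p = 0.417) did not pass the test. Exons of Tgfb3 overlap those of Ttll5 on the opposite strand, and whether the counting used strand is not given in the sources used here, so reads of the 2 genes cannot be told apart.

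Tgfb2, on chromosome 1 from 186354985 to 186438294 on the minus strand, is the ligand gene whose promoter window with SMAD and TATA boxes is printed above. It had 24, 10 and 11 counts in WT and 18, 16 and 20 counts in sST2-KO libraries, or 2.24, 0.942 and 1.36 CPM against 1.25, 1.90 and 1.97 CPM. These values overlapped throughout, and the log2 fold change was 0.16 (standard error 0.44, edgeR adjusted p = 0.824).

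Because the ligands differ in level, their shares within each library were compared per kilobase of exon, a scale on which genes of unequal length can be set side by side. Tgfb1 made up 71.8%, 71.9% and 62.5% of the summed per-kilobase level of the 3 ligand genes in WT replicates 1 to 3. In sST2-KO replicates 1 to 3 its share was 88.8%, 86.7% and 87.0%. The mean share was 68.7% ± 5.40 (SD, n = 3) in WT and 87.5% ± 1.14 (SD, n = 3) in sST2-KO, without overlap and without a test. The share of Tgfb3 was 24.3%, 26.6% and 35.1% in WT and 9.57%, 11.7% and 11.7% in sST2-KO libraries. That of Tgfb2 lay between 1.33% and 3.94% in all 6 libraries. Tgfb1 was thus the most abundant ligand transcript of the 3 in every library, and its share was larger in each sST2-KO library than in any WT library. The difference in share combines the rise of Tgfb1 with values of Tgfb3 that did not pass the test. Reads counted for Tgfb3 may also include those of Ttll5. These shares do not depend on how libraries are scaled against each other.

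**Figure D2:**
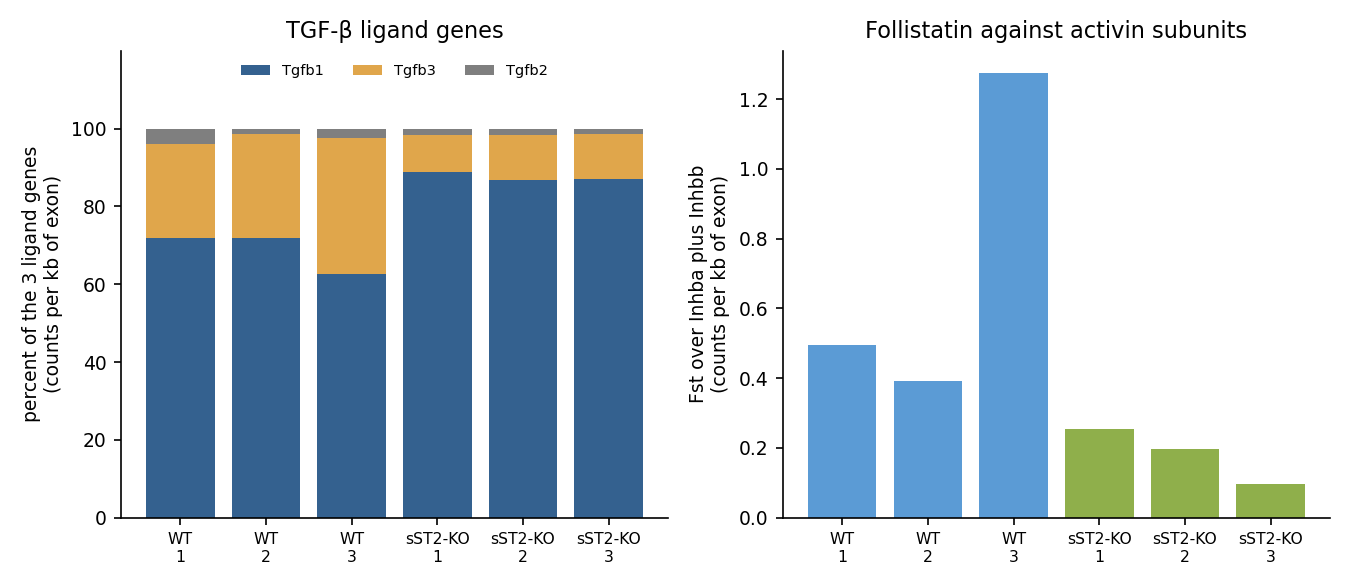
Left, the percent of the summed level per kilobase of exon taken by Tgfb1 (dark blue), Tgfb3 (orange) and Tgfb2 (grey) in each library. Right, the level of Fst per kilobase over that of Inhba plus Inhbb. Tgfb1 takes 62.5% to 71.9% in WT and 86.7% to 88.8% in sST2-KO libraries, and the ratio of Fst lies between 0.393 and 1.27 in WT and between 0.0978 and 0.255 in sST2-KO libraries.

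Neither of the TGF-β receptor genes passed the test. Tgfbr2, on chromosome 9 from 115913361 to 116004800, encodes the type II receptor that binds TGF-β, and was measured at 211, 162 and 150 CPM in WT and 275, 202 and 226 CPM in sST2-KO libraries. Only WT replicate 1 reached into the range of the sST2-KO libraries, and the log2 fold change of 0.43 (standard error 0.23, edgeR adjusted p = 0.215) did not pass the test. Tgfbr1, on chromosome 4 from 47353134 to 47414931, encodes the type I receptor kinase, with 27.3, 16.5 and 17.3 CPM in WT and 22.2, 20.4 and 21.9 CPM in sST2-KO libraries. The 3 sST2-KO values lay between the WT values, and the log2 fold change was 0.08 (standard error 0.24, edgeR adjusted p = 0.841). The spread of Tgfbr1 in sST2-KO, 21.5 ± 0.975 CPM (SD, n = 3), was narrower than in WT, 20.4 ± 6.05 CPM (SD, n = 3), where replicate 1 stood above the other libraries.

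Among the activin subunits, Inhbb carried nearly all of the transcripts. Activins are dimers of these subunits, and activin B, made of the Inhbb product, is known to be secreted by adipocytes. Inhbb, on chromosome 1 from 119343193 to 119350021, had 43.5, 76.6 and 49.2 CPM in the WT libraries and 103, 202 and 137 CPM in the sST2-KO libraries. All sST2-KO libraries were above all WT libraries, with replicate 2 the highest in each group. Its mean was 56.4 ± 17.7 CPM (SD, n = 3) in WT and 147 ± 50.4 CPM (SD, n = 3) in sST2-KO, and the log2 fold change was 1.38 with a standard error of 0.32 (edgeR adjusted p = 0.0276). This call was lost when WT replicate 1 or 3 or sST2-KO replicate 2 or 3 was left out (edgeR adjusted p = 0.0691, 0.115, 0.0631 and 0.0516, in that order), and the log2 fold change then lay between 1.07 and 1.43. The long noncoding RNA gene Gm41935 overlaps Inhbb on the opposite strand.

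Inhba, the gene of the activin A subunit on chromosome 13 from 16186373 to 16206206, had 0, 2 and 1 counts in WT and 1, 1 and 5 counts in sST2-KO libraries. At this depth no comparison could be made. Inhbb accounted for at least 99.78% of the summed per-kilobase level of the subunit genes in every library.

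Fst, on chromosome 13 from 114588731 to 114595521, encodes follistatin, which binds activins and keeps them from their receptors. Its level was 23.6, 33.1 and 68.9 CPM in WT and 28.8, 43.9 and 14.7 CPM in sST2-KO libraries. The highest value was in WT replicate 3 and the lowest in sST2-KO replicate 3, with the other 4 libraries mixed between them. The log2 fold change of -0.52 (standard error 0.49, edgeR adjusted p = 0.482) did not pass the test, and without WT replicate 3 it was 0.033.

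Set against the activin subunits in the same library, the level of Fst per kilobase was 0.495, 0.393 and 1.27 times that of Inhba plus Inhbb in WT replicates 1 to 3. In sST2-KO replicates 1 to 3 it was 0.255, 0.198 and 0.0978 times that level. The ratio was lower in each sST2-KO library than in any WT library, with means of 0.184 ± 0.0795 (SD, n = 3) and 0.721 ± 0.483 (SD, n = 3). Without WT replicate 3 the WT mean was 0.444. No test was made of this ratio, whose difference combines the rise of Inhbb with values of Fst that did not pass the test.

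Bmp4, on chromosome 14 from 46620250 to 46636745, encodes a BMP known to favour the commitment of precursor cells to white and beige adipocytes. It had 4.29, 3.58 and 5.92 CPM in WT and 6.48, 6.41 and 7.70 CPM in sST2-KO libraries, from 38 to 93 counts each. The groups did not overlap, but the gap was small, 5.92 CPM in WT replicate 3 against 6.41 CPM in sST2-KO replicate 2. The log2 fold change of 0.58 (standard error 0.29, edgeR adjusted p = 0.196) did not pass the test. Bmp7, on chromosome 2 from 172709805 to 172782410, the gene of the brown-lineage BMP, had 0, 0 and 9 counts in WT and 3, 0 and 2 counts in sST2-KO libraries. It was at 0 in 3 of the 6 libraries and was not tested.

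Ordered by mean level per kilobase of exon in WT, the members ran from Tgfbr2 (19.8 ± 3.69 CPM per kilobase, SD, n = 3) through Inhbb (13.1 ± 4.12), Fst (8.87 ± 5.07), Tgfb1 (6.57 ± 0.875), Tgfbr1 (3.07 ± 0.914), Tgfb3 (2.73 ± 0.509), Bmp4 (0.877 ± 0.229) and Tgfb2 (0.242 ± 0.106) to Bmp7 and Inhba. Neighbours in this order were separated in all libraries only between Tgfb1 and Tgfbr1, between Tgfb3 and Bmp4 and between Bmp4 and Tgfb2. In sST2-KO, Inhbb came first (34.2 ± 11.7 CPM per kilobase, SD, n = 3), then Tgfbr2 (26.7 ± 4.25), Tgfb1 (16.0 ± 4.79) and Fst (6.18 ± 3.09), and the order of Tgfbr1, Tgfb3, Bmp4 and Tgfb2 was that of WT. Inhbb and Tgfbr2 overlapped there, whereas Tgfb1 lay below Tgfbr2 and above Fst in every sST2-KO library. The order depends on the length used, since with the longest transcript in place of the union of exons 6 of the 10 members kept their rank in both groups. With that length the sST2-KO mean was 31.5 CPM per kilobase for Tgfb1 and 27.4 for Tgfbr2. Tgfb1 was then above Tgfbr2 in sST2-KO replicates 2 and 3 and below it in replicate 1.

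The genes whose pattern over the 6 libraries was most like that of Tgfb1 were Cdc20, an activator of the anaphase-promoting complex, and the predicted gene Gm29779. Their root mean square difference from Tgfb1, in centred log2 CPM over 6 libraries, was 0.0492 and 0.102, the smallest among 11620 genes compared. The pattern most like that of Inhbb was found in Fut2, a fucosyltransferase gene, and Ehd3, an endocytic recycling gene, with differences of 0.119 and 0.164. This measure is a description, and the points share the 2 groups of libraries.

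The other genes of the pathway were grouped into 7 lists by role, with 110 genes, of which 84 were tested. An adjusted p under 0.05 was reached by 9 that were higher and 1 that was lower in sST2-KO, where 10.5% of all genes tested were higher and 9.10% were lower at this threshold. The share of higher genes was thus near the background. Of the 84, 53 had a positive and 31 a negative log2 fold change, with a median of 0.24 against 0.034 for all genes tested. Groups without overlap were found in 27 of the 84, and in 41.5% of all genes tested.

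**Figure D3:**
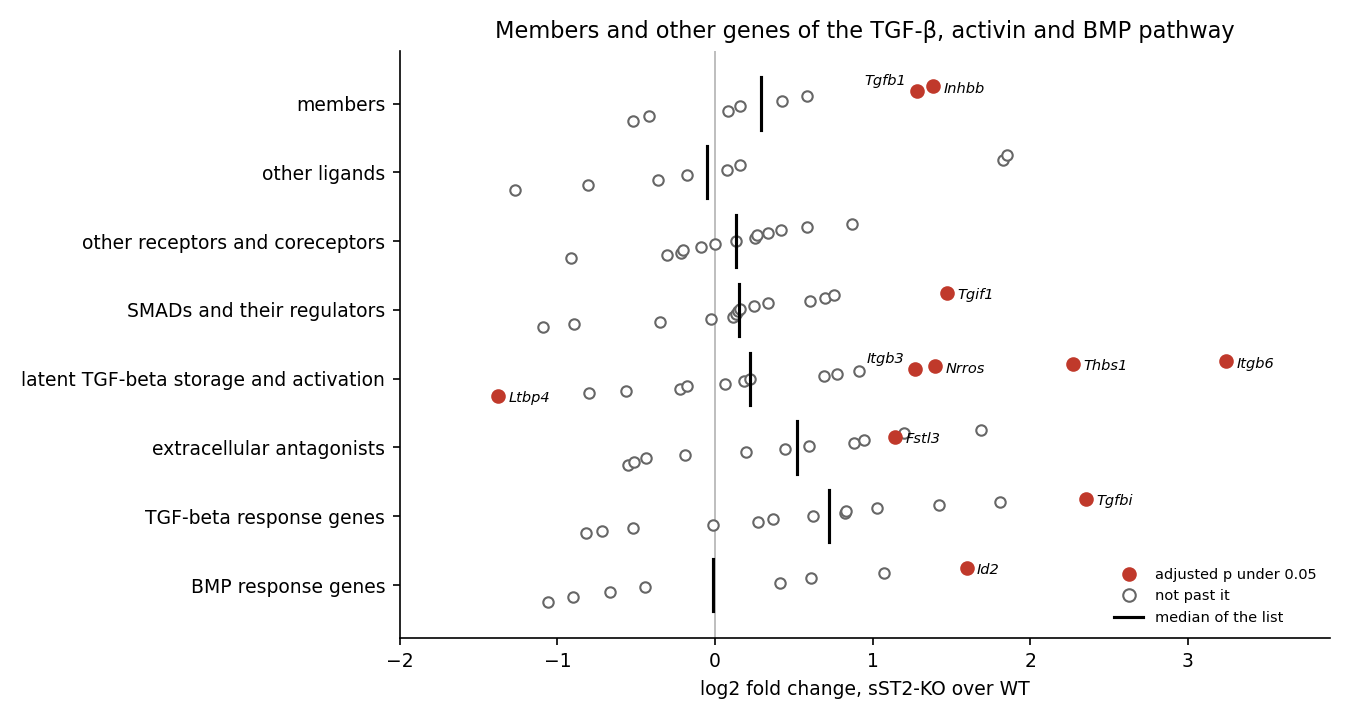
Log2 fold change of sST2-KO over WT for the 8 members tested (top) and for 83 of the 84 other pathway genes tested, in 7 lists by role, with filled red points where the edgeR adjusted p was under 0.05 and black bars for the median of each whole list. The red points are 2 members and 9 other genes, and of these only Ltbp4 is on the negative side.

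Of 25 other ligand genes, 8 were tested, 4 with a positive and 4 with a negative log2 fold change, and 0 passed an adjusted p of 0.05 in edgeR's quasi-likelihood test (2 with an unadjusted p under 0.05). With DESeq2, which was run without the filter on low counts, 3 of the 25 passed, and these may include genes not tested with edgeR. Gdf15, the gene of a stress-induced member of the family, ranged from 1.48 to 17.2 CPM in WT and from 15.5 to 46.4 CPM in sST2-KO libraries. WT replicate 2 overlapped with the sST2-KO libraries, and the log2 fold change was 1.85 (standard error 0.88, edgeR adjusted p = 0.175). Without that library it was 3.64 (edgeR adjusted p = 0.0402). Bmp8b, known for its part in BAT heat production, had 5, 3 and 4 counts in WT and 1, 1 and 2 counts in sST2-KO libraries and was not tested.

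Of 13 other receptor and coreceptor genes tested, 7 had positive and 6 had negative log2 fold changes, with a median of 0.13 that ran from 0.0060 (without sST2-KO replicate 1) to 0.26 (without sST2-KO replicate 3) when 1 library was left out. Again 0 passed an adjusted p of 0.05 in edgeR's quasi-likelihood test (2 with an unadjusted p under 0.05), and 1, Acvr1c, passed with DESeq2. Acvr1c, which encodes the type I receptor ALK7 of adipocytes for activin B and related ligands, was measured at 36.6, 30.8 and 31.9 CPM in WT and 18.5, 24.4 and 9.87 CPM in sST2-KO libraries. The groups did not overlap, and the log2 fold change was -0.91 (standard error 0.32, edgeR adjusted p = 0.0811). It passed the threshold with DESeq2 (adjusted p = 0.0437) and with edgeR without sST2-KO replicate 2 (adjusted p = 0.0485). Bmpr1a, a type I receptor of BMPs, had a log2 fold change of 0.13 (edgeR adjusted p = 0.716). For Acvr2a, a type II receptor of activins, it was 0.42 (edgeR adjusted p = 0.285).

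Of 14 genes of SMADs and their regulators, 10 had positive and 4 had negative values, with a median of 0.15, and 1 passed the test. The median was 0.09 without sST2-KO replicate 2 and 0.24 without sST2-KO replicate 1. The gene that passed was Tgif1, which encodes a corepressor of SMAD2 and SMAD3, with 12.0, 13.0 and 9.74 CPM in WT and 24.2, 20.4 and 52.2 CPM in sST2-KO libraries. Its log2 fold change was 1.47 (standard error 0.37, edgeR adjusted p = 0.0343), and 0.93 without sST2-KO replicate 3, the highest library (edgeR adjusted p = 0.0515). Smad3, the transducer of TGF-β and activin signals, ranged from 18.1 to 47.8 CPM in WT and from 23.6 to 74.6 CPM in sST2-KO libraries, with a log2 fold change of 0.60 (edgeR adjusted p = 0.396). Smad7, an inhibitory SMAD that TGF-β induces, had a log2 fold change of 0.25 (edgeR adjusted p = 0.599).

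The proteins that store TGF-β in the matrix in latent form and release it made up the list with most genes past an adjusted p of 0.05, 4 of 15 higher and 1 lower. Over all genes tested, 10.5% were higher and 9.10% were lower at this threshold. Without WT replicate 2 or without WT replicate 3, 0 genes of the list passed. Thbs1, the gene of thrombospondin 1, an activator of latent TGF-β, was measured at 91.9, 111 and 52.6 CPM in WT and 168, 391 and 677 CPM in sST2-KO libraries. Its log2 fold change was 2.27 (standard error 0.52, edgeR adjusted p = 0.0266), and 1.71 without sST2-KO replicate 3 (edgeR adjusted p = 0.0522). Itgb6, whose integrin subunit pairs with αv to activate latent TGF-β in epithelium, had 7, 1 and 0 counts in WT and 35, 12 and 40 counts in sST2-KO libraries (log2 fold change 3.24, edgeR adjusted p = 0.0372). Without WT replicate 1 that value was 5.33, so its size is poorly fixed by these counts.

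Nrros, whose product holds latent TGF-β1 on macrophages and microglia, had 21.4, 24.8 and 16.2 CPM in WT and 30.9, 44.6 and 88.8 CPM in sST2-KO libraries. The log2 fold change was 1.40 (standard error 0.39, edgeR adjusted p = 0.0447), and 0.86 without sST2-KO replicate 3 (edgeR adjusted p = 0.0873). Itgb3, named after its values were seen as the remaining higher gene of this list, encodes the platelet and macrophage integrin subunit β3. It rose from 8.44 ± 1.26 CPM to 20.3 ± 5.83 CPM (SD, n = 3 each), a log2 fold change of 1.27 (edgeR adjusted p = 0.0220). Its call was lost without WT replicate 2 and without WT replicate 3. Ltbp4, a latent TGF-β binding protein gene needed for elastic fibres, fell from 74.4, 85.8 and 118 CPM in WT to 24.5, 45.9 and 36.8 CPM in sST2-KO libraries. All its sST2-KO libraries were below all WT libraries, with a log2 fold change of -1.38 (standard error 0.28, edgeR adjusted p = 0.0203). The related gene Ltbp1 had a log2 fold change of -0.22 (edgeR adjusted p = 0.737), whose sign turned with scaling by total counts (0.018).

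Of 12 genes of extracellular antagonists tested, 8 had positive and 4 had negative values, with a median of 0.52, and 1 passed the test. The median was 0.19 without sST2-KO replicate 3, 0.34 without WT replicate 3, 0.88 without sST2-KO replicate 2 and 0.22 over genes with at least 10 counts in every sample. Fstl3, which encodes a follistatin-like inhibitor of activins and myostatin, had 2.33, 2.64 and 2.22 CPM in WT and 6.34, 4.39 and 5.13 CPM in sST2-KO libraries. Its groups did not overlap, and the log2 fold change was 1.14 (standard error 0.30, edgeR adjusted p = 0.0372), but the adjusted p was between 0.0602 and 0.139 when any library was left out. Exons of Fstl3 overlap those of Prss57 on the opposite strand.

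Among genes known to respond to TGF-β, 10 of 14 had positive and 4 had negative values, with a median of 0.72, and 2 passed the test, Tgfbi among them. The median turned to -0.48 without sST2-KO replicate 3 and was 1.24 without WT replicate 1, 0.48 without WT replicate 2 and 0.16 with the replicate block, so the list as a whole had no stable direction. Tgfbi, a matrix protein gene named for its induction by TGF-β, rose from 64.6, 69.3 and 43.4 CPM in WT to 174, 272 and 462 CPM in sST2-KO libraries. Its lowest sST2-KO library was above its highest WT library by a wide margin, and the log2 fold change was 2.36 (standard error 0.39, edgeR adjusted p = 0.0150). Ccn2, listed in the table as Ctgf and encoding a matricellular growth factor, had a log2 fold change of 1.03 (edgeR adjusted p = 0.0935), with an edgeR adjusted p of 0.0427 without sST2-KO replicate 1.

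Collagen and contractile genes of the same list did not pass the test. The collagen genes Col1a1, Col1a2 and Col3a1 had log2 fold changes of 0.83, 0.62 and 0.36, with the highest level of each in sST2-KO replicate 3 and the lowest in sST2-KO replicate 1. Postn, Tagln and Acta2 had log2 fold changes of -0.82, -0.52 and -0.72. These genes were picked after their values were seen, as members of the list that lie apart from Tgfbi.

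Of 8 BMP response genes tested, 4 had positive and 4 had negative values, with a median of -0.02. This median had no stable sign, at -0.31 without sST2-KO replicate 1 and 0.23 without WT replicate 3. It also moved where genes of the list entered or left with the filter on low counts. It was -0.46 with DESeq2, which was run without the filter on low counts, and 0.44 over genes with at least 10 counts in every sample. Id2, an inhibitor of basic helix-loop-helix factors, was the 1 gene that passed, with 16.7, 32.8 and 19.2 CPM in WT and 51.9, 70.7 and 85.4 CPM in sST2-KO libraries. Its log2 fold change was 1.60 (standard error 0.31, edgeR adjusted p = 0.0179). Id1, a well-known direct target of BMPs, ranged from 114 to 174 CPM in WT and from 79.2 to 170 CPM in sST2-KO libraries, with a log2 fold change of -0.44 (edgeR adjusted p = 0.377). When 1 library was left out in turn, the calls of Tgfbi and Id2 were lost only without WT replicate 3 (edgeR adjusted p = 0.0659 and 0.0827), and without that library 0 of the 84 pathway genes passed an adjusted p of 0.05 (19 with an unadjusted p under 0.05). The call of Ltbp4 was lost without WT replicate 2 or 3 (edgeR adjusted p = 0.0544 and 0.0819). That of Itgb3 was also lost without either of these libraries. The calls of Tgif1, Thbs1, Itgb6 and Nrros were each lost without at least 4 of the 6 libraries in turn, WT replicates 2 and 3 and sST2-KO replicate 3 among them.

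The libraries held between 8159442 and 12874809 counts. Mitochondrial protein genes took 6.80% of the counts in sST2-KO replicate 3, and between 11.8% (WT replicate 2) and 16.6% (sST2-KO replicate 2) in the other libraries. Il1rl1, the edited gene, had 19, 19 and 6 counts in WT and 55, 69 and 142 counts in sST2-KO libraries, and since its counts pool sST2 with the membrane form ST2L, they do not check the genotype. Alb, the liver albumin gene, stood at 33870 counts in WT replicate 2 and at 254 or fewer in the others.

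Markers of several cell types moved with the groups, and their part in the values above was not tested. The 8 brown adipocyte markers, led by Ucp1, were present in all libraries but summed to 8068 to 15190 CPM in WT and 342 to 1795 CPM in sST2-KO, with 7 lower without overlap. In bulk tissue, fewer cells of a type and less RNA per cell cannot be told apart. The 8 macrophage and monocyte markers summed to 610 to 860 CPM in WT and 1149 to 5277 CPM in sST2-KO, with 4 higher without overlap. Their sum was highest in sST2-KO replicate 3, as were those of neutrophils, T cells and skeletal muscle and the level of Tgfb1. Inhbb was highest in sST2-KO replicate 2. In sST2-KO replicates 1 and 2 the macrophage sum was 1251 and 1149 CPM, where Tgfb1 was at 56.1 and 82.6 CPM. The 7 T cell markers summed to 24.6 to 33.4 CPM and 115 to 141 CPM, with 6 higher without overlap, and the 7 neutrophil markers to 31.9 to 137 CPM and 151 to 731 CPM, with 4. All 8 skeletal muscle markers were higher without overlap, at sums of 6.29 to 1209 CPM in WT and 3441 to 14861 CPM in sST2-KO, although 0 passed an adjusted p of 0.05 in edgeR's quasi-likelihood test. Of these lists, Ly6g, Myh4 and Ckm were at 0 counts in at least 1 library. The sums of fibroblast and endothelial markers overlapped between the groups, at 303 to 643 and 1211 to 1616 CPM in WT and 237 to 498 and 1104 to 2051 CPM in sST2-KO. The 6 smooth muscle and pericyte markers summed to 590 to 822 CPM and 674 to 1853 CPM, but Des, which skeletal muscle also expresses, carried that overlap. Without Des, a sum added after the values were seen, the other 5 were at 508 to 615 CPM in WT and 219 to 385 CPM in sST2-KO, and Myh11, Cnn1 and Rgs5 were each lower without overlap. Those of the adipocyte and Schwann cell lists were lower in sST2-KO, at 4677 to 8933 CPM against 13074 to 16234 CPM and at 11.1 to 29.3 CPM against 41.8 to 73.9 CPM.

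**Figure D4:**
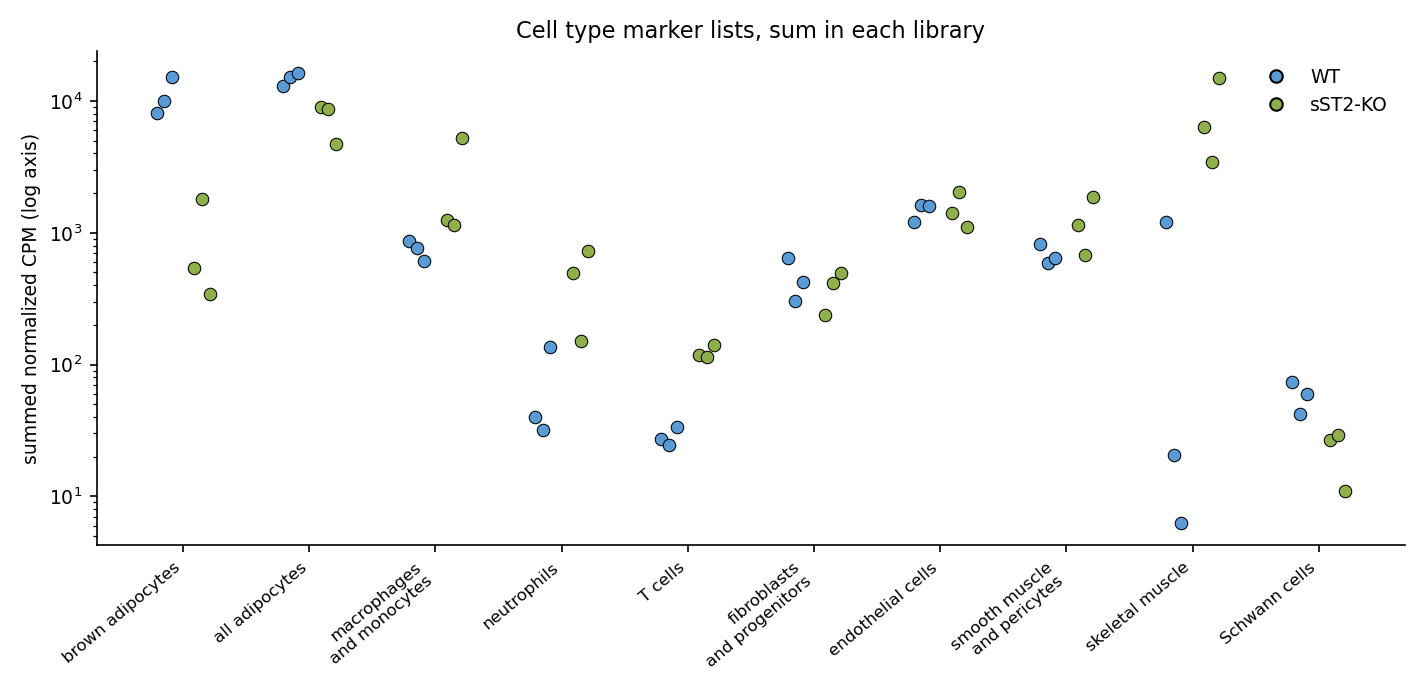
Sum of the normalized CPM of each marker list in each library, on a log axis, with WT in blue and sST2-KO in green and replicates 1 to 3 from left to right. Sums of brown adipocyte, adipocyte and Schwann cell markers are lower in all sST2-KO libraries than in any WT library, those of macrophages, neutrophils, T cells and skeletal muscle are higher, and those of fibroblasts and endothelial cells overlap. The smooth muscle and pericyte sums overlap through Des, and without it are lower in all sST2-KO libraries.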

How the data were processed

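BAT RNA was extracted with Trizol, and libraries were sequenced as 150 bp paired-end reads. The authors aligned the reads to mm39 with HISAT2 2.2.1, after FastQC 0.12.1, per the submitters' processing notes, and counted them with htseq-count. The version of htseq-count and its use of strand are not given in the sources used here. The deposited table holds raw read counts per gene symbol, which the authors did not normalize. The authors' methods select genes by DESeq2.

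Tests were run with edgeR 4.0.16 in R 4.3.3, using filterByExpr on the groups, TMM scaling, glmQLFit and glmQLFTest without a covariate, and Benjamini-Hochberg adjustment over all 14542 genes tested. The calls required an adjusted p below 0.05 together with more than a 2-fold difference. Standard errors were taken as the log2 fold change over the square root of the F statistic. The common biological coefficient of variation was 0.325. Patterns were compared in log2 CPM with a prior count of 2. The steps were tested on simulated data. Libraries of the same group had chi-square values per degree of freedom between 36.6 and 104, so each was counted as a sample. The values for sST2-KO replicate 3 were 104 against replicate 1 and 89.6 against replicate 2. Alternatives were the replicate block, DESeq2 1.42.0, leaving out each library, total counts or RLE factors for scaling, robust estimation, a filter of at least 10 counts in all samples or none, counts without length and the longest transcript as gene length.

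The members, pathway lists and marker lists were chosen with earlier results of these data known. Named were all members, up to 3 rises and 3 falls per pathway list with an adjusted p under 0.05 and no overlap between the groups, the 2 genes most like each called member and, whatever their result, Bmp8b, Gdf15, Bmpr1a, Acvr1c, Acvr2a, Smad3, Smad7, Ltbp1, Fstl3, Ccn2 and Id1. The values of 2 genes that count in the lists are not reported here. Coordinates, exon lengths and overlaps are from the GENCODE annotation of GRCm39, to which 27474 of 35974 symbols matched by name and 865 by an older name. Figures were drawn with matplotlib 3.10.9.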

Additional observations from a re-analysis of the deposited data

How the results depend on the processing

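Tgfb1 and Inhbb were the members called with DESeq2, with total counts or RLE factors for scaling, with robust estimation, and with either other filter on low counts. With the replicate number as a block, 0 of the 14542 genes, 0 members and 0 of the 84 pathway genes passed, by the call rule for genes and members and the adjusted p for pathway genes (4623 genes, 2 members and 30 pathway genes with an unadjusted p under 0.05). The log2 fold changes were then 1.24 for Tgfb1 (adjusted p = 0.0709) and 1.37 for Inhbb (adjusted p = 0.0644). The sample titles do not say that equal numbers pair the samples. Same-numbered deviations from the group means correlated at -0.06, 0.21 and -0.31, values that show no common pairing but cannot exclude one. DESeq2, run without the filter on low counts, gave an adjusted p under 0.05 to 17 pathway genes, which may include genes not tested with edgeR. With edgeR, 10 passed.

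Leaving out 1 library at a time, the genes called numbered 58 to 2323 and the members called 0 to 2, with 0 without WT replicate 3, Tgfb1 alone without WT replicate 1 or sST2-KO replicate 2 or 3, and Inhbb alone without WT replicate 2. Without WT replicate 3, 58 genes were called, without WT replicate 2, 871, and without sST2-KO replicate 3, 1324, against 2348 with all libraries. The pathway genes past the adjusted p numbered 0 to 14, with 0 without WT replicate 3 and 4 without WT replicate 2 or sST2-KO replicate 3. The log2 fold change lay between 1.05 and 1.49 for Tgfb1 and between 1.07 and 1.66 for Inhbb.

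Signs turned in genes that did not pass the test. With total counts the log2 fold change of Ltbp1 was 0.018, and over the fits without 1 library it ran from -0.51 to 0.19 for Ltbp1, from -0.10 to 0.56 for Tgfb2, from -0.055 to 0.35 for Tgfbr1, from -0.96 to 0.033 for Fst, from -0.044 to 0.26 for Bmpr1a and from -0.075 to 0.47 for Smad7. Medians of the pathway lists moved with single libraries, from -0.48 to 1.24 for TGF-β response genes, from -0.31 to 0.23 for BMP response genes and from 0.19 to 0.88 for antagonists. Without length, the share of Tgfb2 in sST2-KO was 1.86%. With the longest transcript, 6 of 10 members kept their rank. Total counts moved the median log2 fold change of all genes from 0.034 to 0.29. The cause of these changes was not tested. At a few counts per library, Inhba and Bmp7 allowed no comparison.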

Other observations

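Bmp2 and Bmp6, BMP ligand genes of the pathway lists that were picked after their values were seen, had groups without overlap in opposite directions. Bmp2, a BMP of bone and fat precursors, was measured at 2.71, 1.98 and 1.97 CPM in WT and 3.00, 14.6 and 6.42 CPM in sST2-KO libraries, with a log2 fold change of 1.83 (standard error 0.57, edgeR adjusted p = 0.0615). Bmp6, known as the liver signal for hepcidin, was measured at 51.0, 48.1 and 36.2 CPM in WT and 28.2, 19.3 and 8.39 CPM in sST2-KO libraries, with a log2 fold change of -1.27 (standard error 0.40, edgeR adjusted p = 0.0627). Neither passed the test. They were the 2 of 8 other ligand genes tested whose groups did not overlap, which was found in 41.5% of all genes tested.

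Mstn, the gene of myostatin, a muscle-made ligand that Fstl3 binds, had 1, 1 and 0 counts in WT and 27, 3 and 23 counts in sST2-KO libraries. It was too low to be tested, and skeletal muscle markers were also higher in those libraries. Inhbc and Gdf2, ligand genes made by the liver, had 41 and 12 counts in WT replicate 2 and at most 2 in any other library, and WT replicate 2 was also the library with 33870 counts of Alb. The part of other tissues in these counts was not tested.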
